A study of Homo sapiens with 14 samples.

Results

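The genes described here make ribosomal RNA and assemble it into ribosomes. They were chosen as a list of 49 human gene symbols, with no threshold on a measured value, and 49 of 49 had a row in each of 3 deposited tables, which share 13720 gene rows. RNA-seq was run on 14 libraries of 2 human leukaemia cell lines, 2 libraries in each of 7 groups. MV4;11 is a myelomonocytic line that carries a KMT2A-AFF1 fusion and an internal tandem duplication of FLT3, and EOL-1 was derived from an eosinophilic leukaemia. The study asked how the transcriptome changes when EZH2, the methyltransferase subunit of Polycomb repressive complex 2, or cMyc, a transcription factor that binds E-box DNA, is depleted.

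All 7 groups received doxycycline at 1 µg/ml for 4 days, controls included. In MV4;11, shEZH2 carries a hairpin against EZH2 and is set against EV. In the same line, sgcMyc_1 and sgcMyc_5 carry guides 1 and 5 against cMyc, and both are set against 1 pair of sgEV libraries. In EOL-1, sgEZH2 carries a guide against EZH2 and is set against its own sgEV. The labels state neither whether the 2 libraries of a group were grown as separate cultures nor whether the cells were clones or mixed populations. A p-value here therefore rests on library spread alone, and that spread may be technical.

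Ribosomal RNA is transcribed in the nucleolus by RNA polymerase I as a long precursor that is cut, folded and chemically modified. Box C/D and box H/ACA ribonucleoproteins guide methylation and pseudouridylation of the precursor, the small subunit processome folds and cleaves the part that becomes the 40S subunit, and another set of factors builds the 60S subunit. Ribosome synthesis follows cell growth, and many of its genes are known targets of MYC. The 49 members fall into 6 roles: 7 genes of RNA polymerase I and its initiation factors, 7 nucleolar scaffold and chaperone proteins, 3 core proteins of box C/D and 4 of box H/ACA ribonucleoproteins, 17 genes of the small subunit processome and 40S maturation, and 11 of 60S assembly. The RNA measured here was messenger RNA of these genes, so the level of ribosomal RNA itself is not reported.

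Libraries held 13313056 to 16274554 gene counts in MV4;11 and 24574136 to 30256833 in EOL-1. No member was at 0 in any library, and the lowest member count was 94 in the shEZH2 table, 55 in the sgcMyc table and 7 in the EOL-1 table. That lowest gene was PWP2, which was not tested in EOL-1, so 49, 49 and 48 members were tested. The members' levels summed to 9217 and 9272 CPM (counts divided by library size, with sizes scaled by the TMM method) with shEZH2, against 8663 and 8724 CPM with EV. They summed to 5933 and 5971 CPM with guide 1 and 6037 and 6357 CPM with guide 5, against 6718 and 6701 CPM with sgEV. In EOL-1 the sums were 9553 and 9711 CPM with sgEZH2, against 9688 and 9764 CPM with sgEV. The groups overlapped in EOL-1 and did not overlap in MV4;11. NPM1 and NCL weigh heavily in these sums, so the sums do not give the direction of the other members. With shEZH2 their means were 1815 and 1560 CPM, against 1541 and 1509 CPM with EV. The sums also rest on TMM scaling. In bulk RNA, fewer cells of a type and less RNA per cell cannot be told apart.

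EZH2, the targeted gene, stood at 9.75 and 9.70 CPM with shEZH2, against 73.3 and 75.8 CPM with EV, and at 27.8 and 26.1 CPM with sgEZH2 in EOL-1, against 70.7 and 70.4 CPM with sgEV. MYC stood at 681 and 689 CPM with shEZH2, against 573 and 583 CPM with EV. In EOL-1 it stood at 655 and 660 CPM with sgEZH2, against 673 and 680 CPM with sgEV. In MV4;11 guide 1 gave 866 and 872 CPM and guide 5 818 and 822 CPM, against 658 and 660.4 CPM with sgEV. The MYC transcript was thus higher, not lower, in the libraries labelled sgcMyc. A Cas9 cut need not lower a transcript, so the transcript does not check these labels, and the protein is not reported here. Of 9 myeloid markers, 8 were measured, and none of the 8 was at 0 in any library. Their summed level was 5409 and 5416 CPM with guide 1 and 5103 and 5081 CPM with guide 5, against 1966 and 1950 CPM with sgEV. LYZ, the lysozyme of monocytes and granulocytes, was the highest of the 8 with 3709 and 3709 CPM under guide 1 and 3417 and 3450 CPM under guide 5, whereas FLT3 was the highest with sgEV, at 711 and 685 CPM. In EOL-1 the same markers summed to 2661 and 2642 CPM with sgEZH2, against 1041 and 1053 CPM with sgEV. LYZ was the highest there with sgEZH2, at 1623 and 1627 CPM, and CEBPA with sgEV, at 311 and 328 CPM. With shEZH2 in MV4;11 the 8 markers summed to 1657 and 1675 CPM, against 1569 and 1573 CPM with EV. LYZ weighs heavily in the sums, so they do not give the direction of the other markers. Of 7 genes listed for eosinophils only PDGFRA was measured in EOL-1, and EPX, PRG2, CLC, IL5RA, CCR3 and GATA1 were not. The eosinophil origin of EOL-1 was therefore not checked by these genes. Markers of T cells, erythroid cells and fibroblasts were measured in none of the tables. The measured B cell markers summed to at most 6.27 CPM and the epithelial markers to at most 18.1 CPM in any library. The part of these marker shifts in the members' changes was not tested.

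With the cMyc guides, 18 of 49 members fell and 1 rose. The 18 that fell include the Pol I subunit POLR1E, the Pol I cofactor TCOF1, the 18S endonuclease NOB1 and the 60S factor WDR12, which fell by 26.4% to 34.7% relative to sgEV. The 1 that rose was UTP20, a large scaffold of the small subunit processome. The comparison takes the mean of both guides against sgEV and was tested with edgeR's quasi-likelihood test and Benjamini-Hochberg adjustment over all 13948 genes tested, with a threshold of 0.05. Over those genes, 18.7% were called lower and 18.6% higher, against 36.7% and 2.04% of the members. The median log2 fold change was -0.11 over the members and -0.00 over all genes, but with libraries scaled by spike-in RNAs it was 0.01 over the members and 0.11 over all genes. With TMM scaling, fewer members were called lower when either sgEV library was left out, and more when either guide 5 library was. The share of all genes called lower moved the same way. The members' median lay between -0.12 and -0.11 in these fits.

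All 7 genes of RNA polymerase I and its initiation factors had a negative log2 fold change with the cMyc guides, and 3 of 7 passed the test. That is 42.9%, where 18.7% of all genes were called lower. Under spike-in scaling 4 of 7 were negative, and 7 of 7 lay below the median of all genes. POLR1E, which forms a dimer specific to polymerase I, measured 34.6 and 36.6 CPM with guide 1 and 33.4 and 35.6 CPM with guide 5, against 51.2 and 47.3 CPM with sgEV. Every sgcMyc library was below both sgEV libraries, and the log2 fold change was -0.49 ± 0.06 (SE, n = 2 libraries per guide and 2 of sgEV, edgeR adjusted p = 6.4e-05). Here and below, the SE comes from spread between libraries of a group and does not cover spread between guides. TAF1D, a subunit of the selectivity factor that places the polymerase on the ribosomal promoter, measured 49.6 and 49.1 CPM with guide 1 and 50.05 and 50.8 CPM with guide 5, against 68.1 and 64.4 CPM with sgEV. The 4 sgcMyc libraries lay close together and apart from sgEV (log2 fold change -0.41 ± 0.05, edgeR adjusted p = 6.35e-05). POLR1B, a core subunit, measured 67.7 and 67.7 CPM with guide 1 and 73.5 and 66.6 CPM with guide 5, against 80.2 and 77.1 CPM with sgEV. Its smaller fall of 0.19 on the log2 scale was not called with DESeq2 or with spike-in scaling. Nor was it called when either sgEV or either guide 1 library was left out.

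The catalytic subunit POLR1A did not pass (log2 fold change -0.10 ± 0.09), and its libraries overlapped. It measured 101 and 97.4 CPM with guide 1 and 119.8 and 94.2 CPM with guide 5, against 107 and 114 CPM with sgEV. The first guide 5 library stood above both controls and the second below all other libraries. POLR1C, a subunit shared with RNA polymerase III, had a log2 fold change of -0.19 ± 0.08. UBTF, which binds and bends ribosomal DNA, had -0.08 ± 0.04, and RRN3, which recruits the polymerase to the promoter, -0.03 ± 0.05. None of these 3 passed.

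Among the 7 nucleolar scaffold and chaperone genes, 5 fell (71.4%, where 18.7% of all genes were called lower). All 7 had negative values, which under spike-in scaling became 5 of 7. TCOF1 encodes treacle, which tethers polymerase I and UBTF at ribosomal DNA. It measured 49.4 and 46.0 CPM with guide 1 and 52.8 and 49.96 CPM with guide 5, against 78.5 and 73.2 CPM with sgEV. No sgcMyc library came near the sgEV pair, and the log2 fold change of -0.62 ± 0.06 was the lowest of the 49 members (edgeR adjusted p = 3.54e-06). NPM1, a histone and ribosome chaperone, measured 988 and 1013 CPM with guide 1 and 968 and 1096 CPM with guide 5, against 1219 and 1240 CPM with sgEV. The groups did not overlap, although the guide 5 libraries lay far apart from each other (log2 fold change -0.27 ± 0.05, edgeR adjusted p = 8.48e-04). NPM1 has processed pseudogenes, and the authors' counting could split its reads between copies.

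NOLC1, a chaperone of small nucleolar ribonucleoproteins, fell by 0.19 on the log2 scale (edgeR adjusted p = 0.00713). GNL3, the nucleostemin GTPase, fell by 0.13 (adjusted p = 0.0456), and DDX21, an RNA helicase that couples polymerase I transcription to processing, fell by 0.12 (adjusted p = 0.0208), both in the same edgeR test. These 3 calls were lost with spike-in scaling and when either sgEV library was left out. Those of GNL3 and DDX21 were also lost without either guide 1 library, and that of GNL3 with DESeq2 and limma. Nucleolin, NCL, an abundant nucleolar protein, measured 1141 and 1154 CPM with guide 1 and 1157 and 1196 CPM with guide 5, against 1218 and 1202 CPM with sgEV. All 4 sgcMyc libraries were below sgEV by a small margin, and the test did not pass (-0.06 ± 0.04). LYAR, a nucleolar zinc finger protein, had -0.06 ± 0.07 with overlapping libraries.

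**Figure D1:**
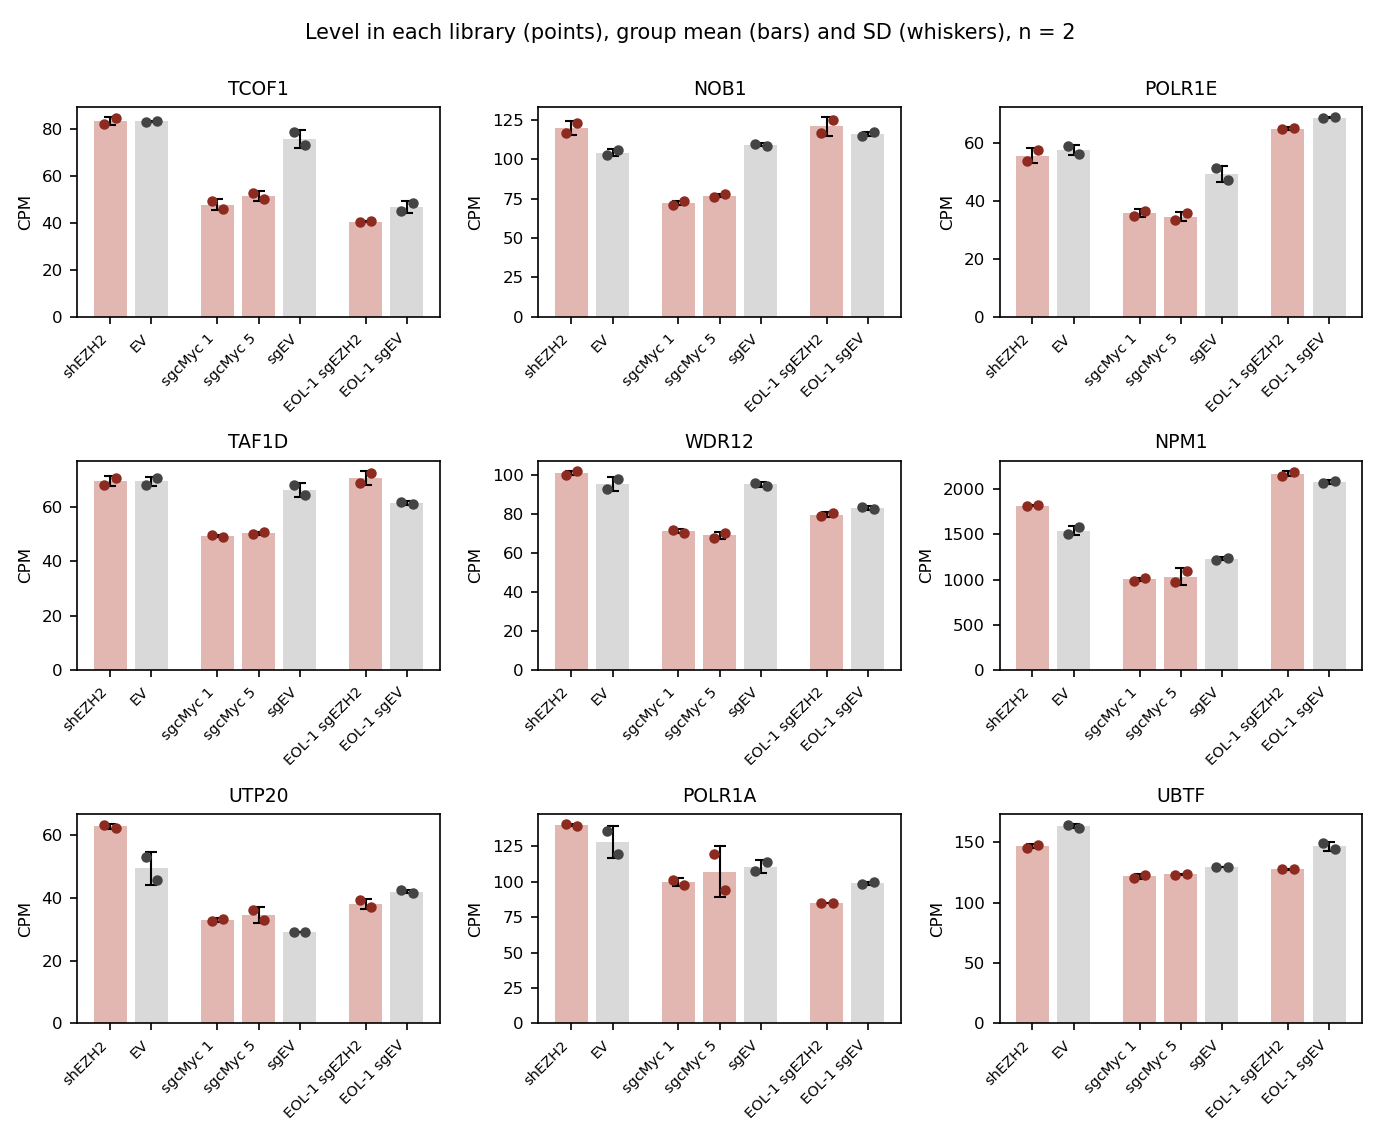
CPM scaled by TMM on a linear axis from 0 for 9 members in all 14 libraries. Targeted groups are in red and their controls in grey. Points are libraries, bars group means and whiskers SD (n = 2). TCOF1, NOB1, POLR1E, TAF1D and WDR12 are lower in all 4 sgcMyc libraries than in both sgEV libraries, whereas UTP20 is higher there and with shEZH2.

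The ribonucleoprotein cores moved little with the cMyc guides. Fibrillarin, FBL, the methyltransferase of box C/D particles, measured 297 and 308 CPM with guide 1 and 293 and 345 CPM with guide 5, against 352 and 344 CPM with sgEV. The second guide 5 library reached the level of the controls, so the groups overlapped even though the test passed (log2 fold change -0.16 ± 0.06, edgeR adjusted p = 0.0403). The call of FBL was lost in 6 of 12 alternatives, DESeq2 and spike-in scaling among them. NOP56 had -0.04 ± 0.05 and NOP58 -0.06 ± 0.05, neither passing. Dyskerin, DKC1, the pseudouridine synthase of box H/ACA particles, fell by 0.16 (edgeR adjusted p = 0.0244). Its call was lost in 5 of 12 alternatives, DESeq2 and spike-in scaling among them. The partners of DKC1, GAR1 with 0.00 ± 0.07, NOP10 with -0.05 ± 0.09 and NHP2 with 0.12 ± 0.05, did not pass. NHP2 measured 128 and 136 CPM with guide 5 and 116 and 122 CPM with guide 1, against 111 and 120.4 CPM with sgEV, and passed as higher with guide 5 alone (0.19 ± 0.06, edgeR adjusted p = 0.0231). That guide 5 call was lost in 2 of 12 alternatives, DESeq2 among them.

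Of the 17 genes of the small subunit processome and 40S maturation, 6 fell and 1 rose with the cMyc guides. That is 35.3% and 5.88%, where 18.7% and 18.6% of all genes were called. NOB1, the endonuclease that cuts the 3′ end of 18S ribosomal RNA, measured 71.2 and 73.3 CPM with guide 1 and 76.2 and 77.6 CPM with guide 5, against 109.9 and 108.6 CPM with sgEV. The gap between sgcMyc and sgEV libraries was many times the spread within a group, the log2 fold change was -0.55 ± 0.04 and its adjusted p of 1.1e-06 in edgeR's test was the smallest among the members. TSR1, which acts with NOB1 late in 40S maturation, measured 93.3 and 96.8 CPM with guide 1 and 89.1 and 91.9 CPM with guide 5, against 109.2 and 107 CPM with sgEV. It was lower in 4 of 4 sgcMyc libraries (-0.22 ± 0.05, edgeR adjusted p = 0.00194). The call of TSR1 was lost in 2 of 12 alternatives, spike-in scaling among them.

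NOP14, an early processome factor, measured 96.0 and 92.9 CPM with guide 1 and 96.2 and 100.2 CPM with guide 5, against 113 and 119 CPM with sgEV (log2 fold change -0.26 ± 0.05, edgeR adjusted p = 7.31e-04). DDX10, a helicase, fell by 0.27, WDR3, of the UTP-B subcomplex, by 0.20 and WDR43, of the early UTP-A subcomplex, by 0.18 in the same test. The calls of NOP14, DDX10, WDR3 and WDR43 were lost with spike-in scaling, and that of WDR3 also with DESeq2. Of 12 alternatives, NOP14 lost its call in 1, DDX10 and WDR43 in 2 each and WDR3 in 3. For WDR43 the guides differed in size, with 108 and 106 CPM under guide 1 and 122 and 123 CPM under guide 5, against 128 and 131 CPM with sgEV. The difference of the guides was not called over all genes (edgeR adjusted p = 0.168). HEATR1 and WDR75, which also belong to UTP-A, had -0.17 ± 0.06 and -0.16 ± 0.07 and did not pass.

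UTP20 measured 32.4 and 33.3 CPM with guide 1 and 36.2 and 32.8 CPM with guide 5, against 29.2 and 29.1 CPM with sgEV. All 4 sgcMyc libraries were above both controls, and the log2 fold change was 0.21 ± 0.07 (edgeR adjusted p = 0.0296). This call was lost with DESeq2 and without either sgEV or either guide 1 library. UTP3, the human counterpart of yeast SAS10, measured 41.3 and 44.9 CPM with guide 1 and 44.0 and 41.6 CPM with guide 5, against 37.2 and 39.4 CPM with sgEV. It was also above its controls in 4 of 4 libraries and did not pass (0.17 ± 0.06). PWP2, a UTP-B protein with few reads, ranged from 3.67 to 7.38 CPM in the sgcMyc libraries, against 5.40 and 9.07 CPM in sgEV. Its libraries lay far apart within groups, the SE was 0.27 on the log2 scale and the test did not pass. The cause of this spread was not tested.

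In 60S assembly, 2 of 11 members fell. That is 18.2%, near the 18.7% of all genes that were called lower. WDR12, which forms the PeBoW complex with PES1 and BOP1, measured 72.0 and 70.5 CPM with guide 1 and 67.8 and 70.5 CPM with guide 5, against 96.2 and 94.4 CPM with sgEV. All 4 sgcMyc libraries lay well below sgEV (log2 fold change -0.44 ± 0.05, edgeR adjusted p = 1.19e-05). Its partners did not pass: PES1 had -0.13 ± 0.06 and BOP1 -0.03 ± 0.05, both with overlapping libraries. WDR74, a nucleolar factor of 60S precursors, measured 34.3 and 31.9 CPM with guide 1 and 36.1 and 35.2 CPM with guide 5, against 47.8 and 42.4 CPM with sgEV (-0.39 ± 0.07, edgeR adjusted p = 6.09e-04). The call of WDR74 was lost only with spike-in scaling (edgeR adjusted p = 0.0535). The other 9 members ranged from -0.15 for PPAN to 0.10 for NOP2, the methyltransferase of 28S ribosomal RNA.

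**Figure D2:**
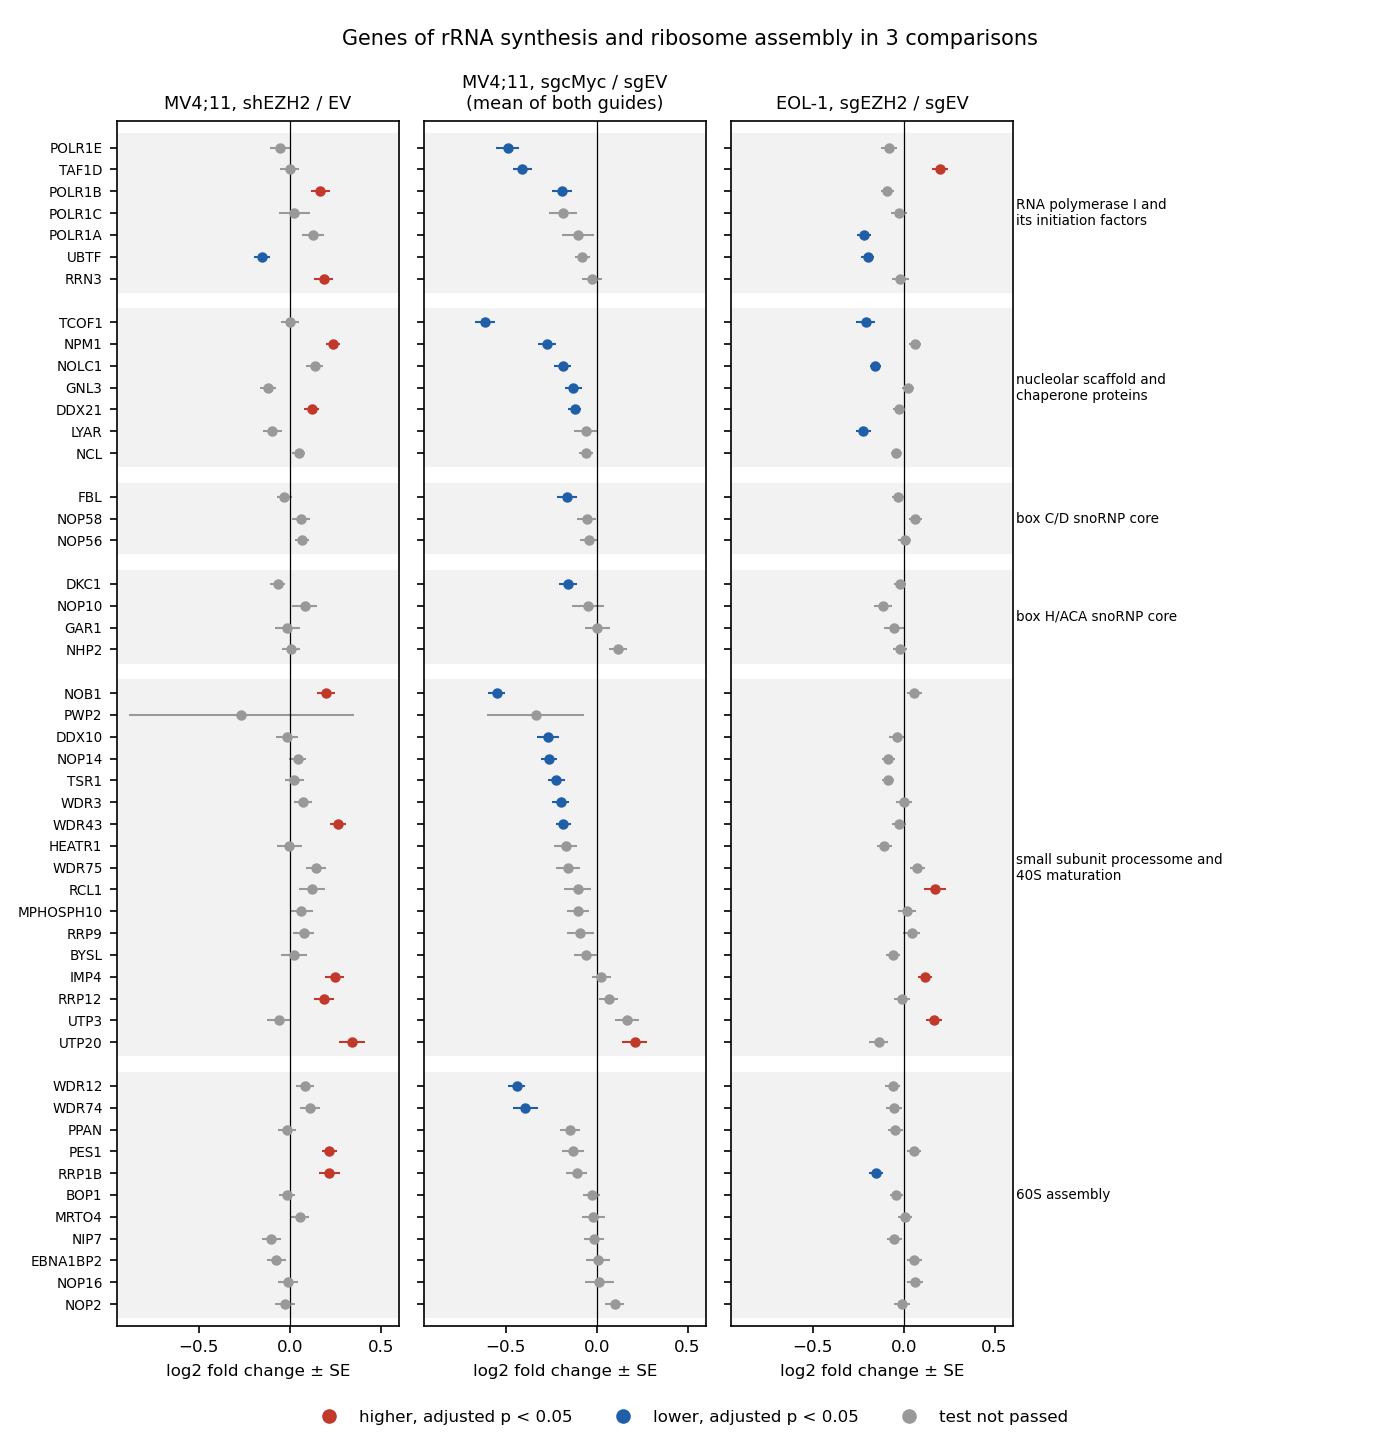
The log2 fold change ± SE (edgeR) of each member, grouped by role and ordered within a role by the sgcMyc value, for shEZH2 against EV, sgcMyc against sgEV and sgEZH2 against sgEV; red and blue mark adjusted p < 0.05, higher and lower. With TMM scaling the sgcMyc panel lies left of 0 for 40 of 49 members, which under spike-in scaling is 24 of 49, and PWP2 has the widest error bar and no EOL-1 value.

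Taken singly, guide 1 gave 0 members higher and 17 lower, where 16.2% and 16% of all genes were called, and guide 5 gave 2 higher and 12 lower, where 15.7% and 15.5% of all genes were called. Both share the sgEV libraries. The members' median log2 fold change was -0.15 with guide 1 and -0.09 with guide 5, but under spike-in scaling it was -0.07 with guide 1 and 0.05 with guide 5, where 34 of 49 values were positive and the median of all genes was 0.15. When guide 5 was set against guide 1, 0 members were called in either direction by edgeR and 0 by DESeq2, although 4 had an unadjusted p under 0.05 in edgeR (WDR43, BOP1, NHP2 and EBNA1BP2). In that comparison 0.0789% of all genes were called higher and 0.33% lower. The median over the members was 0.06, and 39 of 49 were positive. The guide 5 libraries differed more from each other than any other pair, with a chi-square of 5.82 per degree of freedom over genes, against 1.44 for sgEV. Without the first guide 5 library 8 members were called higher with guide 5 than with guide 1, and without the second 2 were. Of all genes, 2.89% were called higher and 3.15% lower without the first, and 1.08% and 1.45% without the second.

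The number of members called depended on the scaling. Both MV4;11 tables list 56 spike-in RNAs, which took 1.15 and 1.18% of counts with guide 1 and 1.06 and 1.18% with guide 5, against 1.22 and 1.24% with sgEV. With libraries scaled by these RNAs, 6 members remained lower with the cMyc guides and 3 were higher, which is 12.2% and 6.12% of the members, where 8.38% of all genes were lower and 22.5% higher. The 6 were POLR1E at -0.38, TAF1D at -0.29, NPM1 at -0.16, TCOF1 at -0.50, NOB1 at -0.44 and WDR12 at -0.33 on the log2 scale, and the 3 were UTP20 at 0.32, UTP3 at 0.28 and NHP2 at 0.23. Of the 49 members 40 lay below the shifted median of all genes, by a median of -0.10 on the log2 scale over the list. The 6 lower members were called under every alternative that was run, with adjusted p-values of at most 0.0378 (NPM1).

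**Figure D3:**
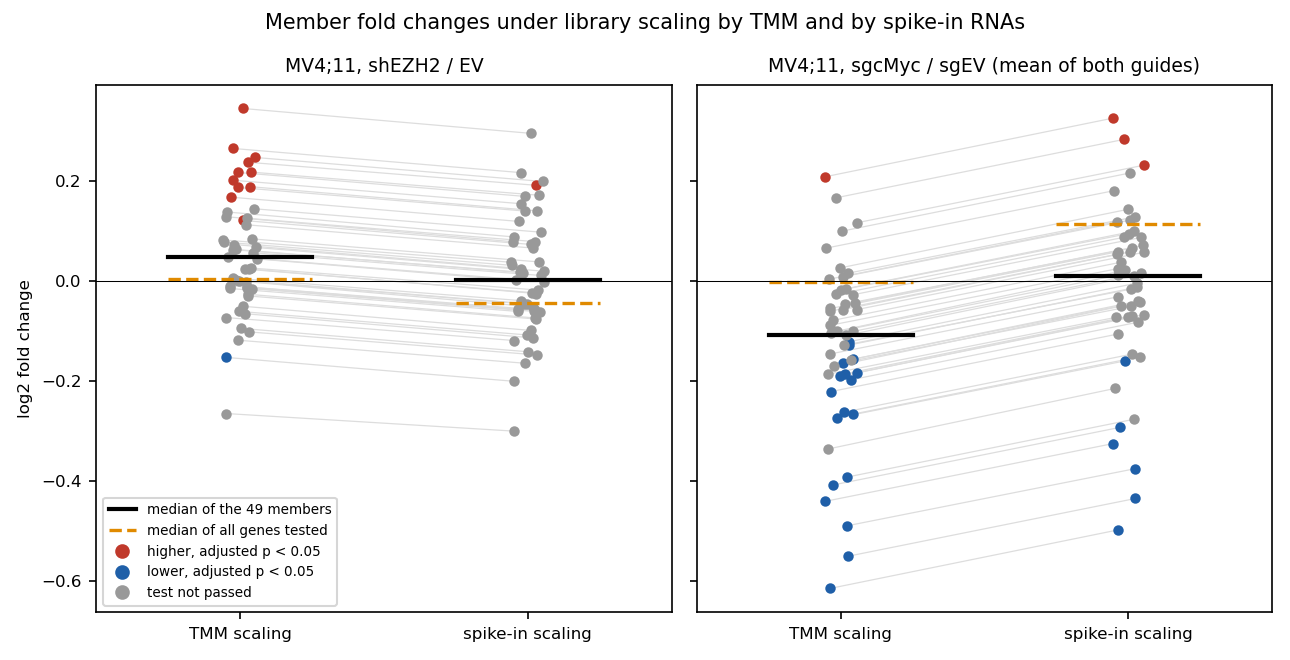
Log2 fold change of the 49 members with TMM scaling and with spike-in scaling, for shEZH2 against EV and for sgcMyc against sgEV; grey lines join a gene's 2 values, black bars are medians of the members and dashed bars medians of all genes tested. In the sgcMyc panel both medians move up together, to 0.01 for the members and 0.11 for all genes, and in the shEZH2 panel both move down, to 0.00 and -0.04.

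Since cMyc binds the E-box CACGTG, a palindrome that reads alike on both strands, the promoters of the members were searched for these letters. The windows are those of RefSeq on GRCh38.p14 and run from 250 bases before a gene's annotated start to 50 after it. Of 49 members 41 matched an entry by symbol, and 18 of these 41 (43.9%) hold CACGTG. The motif occurs in 1145 of 8830 genes with an entry that all 3 tables list (13.0%), and in 2548 of all 35116 windows of this length (7.26%). Promoters of POLR1E, TCOF1, NOLC1, NOP58, RRP12, MPHOSPH10, BOP1 and RRP1B were not used. A match is a run of letters and not a binding site. The sequences that follow show the E-box in capitals with up to 27 bases on each side, first for the 5 members that fell with the cMyc guides and hold it, then for UTP20, which rose, and last for 2 members that hold it and did not pass.
NOP14, chr4:2963377-2963418, minus strand: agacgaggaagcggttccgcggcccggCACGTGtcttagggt
WDR43, chr2:28894643-28894696, plus strand: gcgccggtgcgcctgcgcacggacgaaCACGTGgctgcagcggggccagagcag
FBL, chr19:39846350-39846400, minus strand: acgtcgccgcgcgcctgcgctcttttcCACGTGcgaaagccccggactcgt
GNL3, chr3:52686011-52686061, plus strand: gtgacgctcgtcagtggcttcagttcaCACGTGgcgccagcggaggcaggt
DDX21, chr10:68956589-68956648, plus strand: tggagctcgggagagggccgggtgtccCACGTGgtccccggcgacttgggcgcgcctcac
UTP20, chr12:101280068-101280127, plus strand: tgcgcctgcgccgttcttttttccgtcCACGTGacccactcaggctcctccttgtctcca
RRP9, chr3:51941877-51941936, minus strand: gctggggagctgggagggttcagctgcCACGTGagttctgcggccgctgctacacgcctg
MRTO4, chr1:19251792-19251834, plus strand: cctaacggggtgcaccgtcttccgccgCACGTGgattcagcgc

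Counted from the first transcribed base, the E-box begins 15 bases after it in NOP14, 3 after it in WDR43 and 6 after it in FBL and in GNL3. In DDX21 it begins 31 bases before the start and in UTP20 10 before it. RRP9, a protein of the U3 particle, carries it 5 bases before the start and MRTO4, a 60S assembly factor, 14 bases after. The counts that follow are a description with no test. Of the 18 members with it, 5 were lower and 1 higher with the cMyc guides, with a median log2 fold change of -0.08. Of the 23 without it, 10 were lower and 0 higher, with a median of -0.16. Of the 8 whose promoter was not used, 3 were lower, with a median of -0.11. NOB1, WDR12, TAF1D and WDR74, which had the lowest values among members with an entry, hold no CACGTG in the window. The letters before the starts of NOB1 and WDR12 are shown whole, with no capitals since the motif does not occur.
NOB1, chr16:69754927-69755176, minus strand: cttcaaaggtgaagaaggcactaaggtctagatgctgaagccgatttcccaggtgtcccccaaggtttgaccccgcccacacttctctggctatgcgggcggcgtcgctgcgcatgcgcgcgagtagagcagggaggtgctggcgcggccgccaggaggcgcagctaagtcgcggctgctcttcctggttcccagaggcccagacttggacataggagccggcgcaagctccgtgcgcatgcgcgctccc
WDR12, chr2:202911674-202911923, minus strand: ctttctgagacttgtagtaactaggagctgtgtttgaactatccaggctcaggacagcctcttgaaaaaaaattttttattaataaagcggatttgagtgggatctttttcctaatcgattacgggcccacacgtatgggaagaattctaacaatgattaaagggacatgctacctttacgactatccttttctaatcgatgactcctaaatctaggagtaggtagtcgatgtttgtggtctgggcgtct

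**Figure D4:**
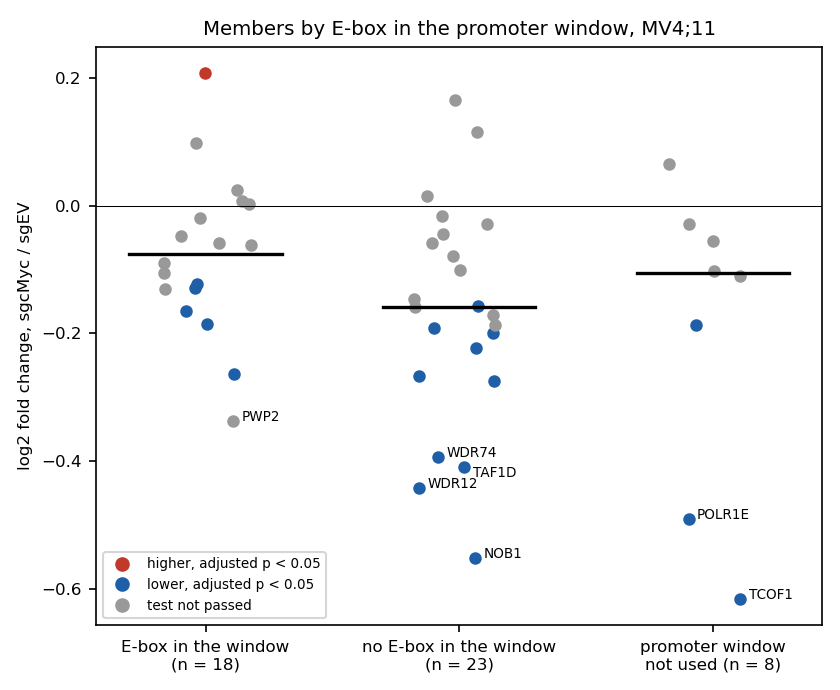
Log2 fold change of each member, sgcMyc against sgEV with TMM scaling, split by whether CACGTG occurs in the promoter window; black bars are medians. The 18 members with the motif have a median of -0.08 and the 23 without it -0.16, and the ranges of both overlap.

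With shEZH2, 11 of 49 members rose and 1 fell. Those that rose include NPM1, the processome proteins UTP20, WDR43 and IMP4, the 60S factors PES1 and RRP1B and the polymerase recruiter RRN3, by 13.8% to 26.9%, and the gene that fell was UBTF. Over all 13591 genes tested, 13.4% were called higher and 14.2% lower, against 22.4% and 2.04% of the members. The members' median log2 fold change was 0.05, with 31 positive and 18 negative values, and that of all genes was 0.00. Under spike-in scaling the members' median was 0.00, 25 values were positive, and 1 member was called, NPM1. Over all genes the median was then -0.04, with 5.92% called higher and 10.4% lower. Of the 49 members 19 lay below that median. Spike-in RNAs took 1.25 and 1.27% of counts with shEZH2, against 1.20 and 1.30% with EV. Fewer members were called higher when either shEZH2 library was left out, and a smaller share of all genes was called higher too. With TMM scaling the members' median was 0.06 without the first shEZH2 library and 0.05 without the second.

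NPM1 measured 1809 and 1821 CPM with shEZH2, against 1506 and 1575 CPM with EV. Both shEZH2 libraries were above both EV libraries (log2 fold change 0.24 ± 0.04, edgeR adjusted p = 0.00109), and with spike-in scaling the value was 0.19 (adjusted p = 0.0111). It was the 1 call of 12 that held under every alternative run. UTP20 measured 63.1 and 62.1 CPM with shEZH2, against 53.0 and 45.5 CPM with EV. Its controls differed by more than its shEZH2 libraries did, the groups did not overlap, and the log2 fold change of 0.34 ± 0.07 was the highest of the members (edgeR adjusted p = 0.00424).

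WDR43 measured 176 and 179 CPM with shEZH2, against 151 and 145 CPM with EV (0.26 ± 0.04, edgeR adjusted p = 9.96e-04). PES1, the pescadillo protein of PeBoW, measured 192 and 189 CPM with shEZH2, against 161 and 167 CPM with EV (0.22 ± 0.04, edgeR adjusted p = 0.00289). In both genes the groups did not overlap. The calls of WDR43, UTP20 and PES1 were lost only with spike-in scaling, with adjusted p of 0.109, 0.0993 and 0.159.

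IMP4, which works with MPHOSPH10 in the U3 particle, rose by 0.25 with shEZH2 (edgeR adjusted p = 0.00457), NOB1 by 0.20 (adjusted p = 0.0116), RRP1B by 0.22 (adjusted p = 0.0165) and RRP12, a HEAT repeat protein, by 0.19 (adjusted p = 0.0286). Each of these 4 calls was lost with spike-in scaling and without 1 of the shEZH2 libraries, the second for IMP4, NOB1 and RRP12 and the first for RRP1B, and those of NOB1, RRP12 and RRP1B also with DESeq2. RRN3 measured 76.6 and 76.2 CPM with shEZH2, against 67.3 and 66.9 CPM with EV (0.19 ± 0.05, edgeR adjusted p = 0.0188). POLR1B rose by 0.17 and DDX21 by 0.12. The calls of RRN3, POLR1B and DDX21 were each lost with DESeq2, with spike-in scaling and without either shEZH2 library, that of POLR1B also without the second EV library and that of DDX21 also with limma and without a filter. UBTF measured 146 and 148 CPM with shEZH2, against 165 and 162 CPM with EV, and its fall of 0.15 was lost with DESeq2, with spike-in scaling and without either shEZH2 library (edgeR adjusted p = 0.0196 with both). None of the 7 ribonucleoprotein core genes passed, and their values ranged from -0.07 for DKC1 to 0.08 for NOP10.

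In all, 5 members moved in opposite directions in the 2 MV4;11 experiments, which share no library. DDX21, NOB1, NPM1, POLR1B and WDR43 were higher with shEZH2 and lower with the cMyc guides. They are 45.5% of the 11 higher and 27.8% of the 18 lower members. Over all genes 399 were called in that combination, 22.4% of the higher and 16.02% of the lower genes. NOB1 shows it at the level of libraries, with 116 and 123 CPM under shEZH2 against 103 and 106 CPM under EV, while guides 1 and 5 gave 71.2 to 77.6 CPM against 108.6 to 109.9 CPM under sgEV. UTP20 was the 1 member higher in both, and no member was lower in both. Over all genes 454 were higher in both, 25.5% of the higher genes with shEZH2, and 592 were lower in both, 31.0% of the lower genes with shEZH2. Under spike-in scaling NPM1 alone kept both calls.

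In EOL-1, depletion of EZH2 gave 6 members lower and 4 higher of 48. The 6 are the polymerase subunit POLR1A, UBTF, the scaffold proteins NOLC1, TCOF1 and LYAR and the 60S factor RRP1B, and the 4 are TAF1D and the processome genes UTP3, IMP4 and RCL1. The 6 fell by 10.0% to 14.2%, and the 4 rose by 8.29% to 14.9%. Of the members 12.5% were called lower and 8.33% higher, and of all 13890 genes tested 11.8% and 15.1%, so the share of lower calls was near that of all genes and the share of higher calls below it. The median log2 fold change was -0.03 over the members and 0.01 over all genes. Fewer members were called higher without either sgEV library, and more were called lower without either sgEZH2 library. Over all genes the share of higher calls fell too, and that of lower calls rose slightly. The members' median was -0.04 and -0.03 without the first and second sgEV library. Without the first and second sgEZH2 library it was -0.02 and -0.05.

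POLR1A measured 84.9 and 85.1 CPM with sgEZH2, against 98.2 and 99.5 CPM with sgEV in EOL-1. Libraries of a group agreed closely, and the log2 fold change was -0.22 ± 0.04 (edgeR adjusted p = 4.38e-04). UBTF measured 128 and 127 CPM with sgEZH2, against 149 and 144 CPM with sgEV (-0.20 ± 0.04, edgeR adjusted p = 4.97e-04). The groups did not overlap. LYAR measured 105 and 111 CPM with sgEZH2, against 125 and 126 CPM with sgEV (-0.22 ± 0.04, edgeR adjusted p = 3.41e-04).

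NOLC1 measured 287 and 288 CPM with sgEZH2, against 322 and 317 CPM with sgEV (-0.16 ± 0.03, edgeR adjusted p = 8.62e-04). POLR1A, UBTF, LYAR and NOLC1 are the 4 of 10 calls in EOL-1 that held under every alternative run. Spike-in scaling was not among those alternatives, since the EOL-1 libraries list no spike-in RNAs. TCOF1 measured 40.5 and 40.6 CPM with sgEZH2, against 44.998 and 48.5 CPM with sgEV, and its call was lost with DESeq2 and without the second sgEV library (edgeR adjusted p = 0.00617 with both). TAF1D went the other way, with 68.9 and 72.7 CPM under sgEZH2, against 62.03 and 61.1 CPM under sgEV. Its groups did not overlap (0.20 ± 0.04, edgeR adjusted p = 0.00259), and DESeq2 did not call it. UTP3 measured 57.0 and 57.1 CPM with sgEZH2, against 51.0 and 50.8 CPM with sgEV (0.17 ± 0.05, edgeR adjusted p = 0.0109), a call lost with DESeq2 and without either sgEV library. RCL1, an 18S processing factor, was called higher in 2 of 9 alternatives.

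UBTF was the 1 member lower and IMP4 the 1 member higher after EZH2 depletion in both lines. Over all genes 448 were higher in both, 26.0% of the higher genes in MV4;11, 338 were lower in both, 18.9% of the lower genes there, and 221 were higher in MV4;11 and lower in EOL-1, 12.8% of the higher genes. The EOL-1 call of IMP4 was lost in 4 of 9 alternatives, with DESeq2, with limma and without either sgEV library. RRP1B, a nucleolar partner of protein phosphatase 1, was the 1 member that moved in opposite directions. Its EOL-1 call was lost with DESeq2 and without the second sgEV library. It measured 139.9 and 126 CPM with shEZH2 in MV4;11, against 118 and 111 CPM with EV, and 122 and 115 CPM with sgEZH2 in EOL-1, against 131 and 132 CPM with sgEV. The difference of the EZH2 effects was tested as an interaction in 1 edgeR fit of both lines. It was negative, meaning lower in EOL-1, for 12 of 49 members and positive for 2, where 12.5% and 14.1% of all genes were called. The members' median difference was -0.08, against -0.00 over all genes. The lines differ here also in how EZH2 was depleted, by hairpin or by guide, so line and method cannot be told apart.

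UTP20 had the largest difference, -0.49 ± 0.09 (edgeR adjusted p = 8.57e-04). It measured 39.1 and 36.9 CPM with sgEZH2 in EOL-1, against 42.3 and 41.6 CPM with sgEV, where shEZH2 had raised it in MV4;11. RRP1B followed with -0.38 ± 0.07 and POLR1A with -0.35 ± 0.07. In MV4;11 POLR1A measured 140.3 and 139 CPM with shEZH2, against 136 and 119.6 CPM with EV. That change did not pass on its own (0.13 ± 0.06, edgeR adjusted p = 0.13). NOLC1 and WDR43 each differed by -0.30 ± 0.06 and POLR1B by -0.27 ± 0.06. These 6 differences held under every alternative run. Spike-in scaling and limma were not among the alternatives run for them.

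**Figure D5:**
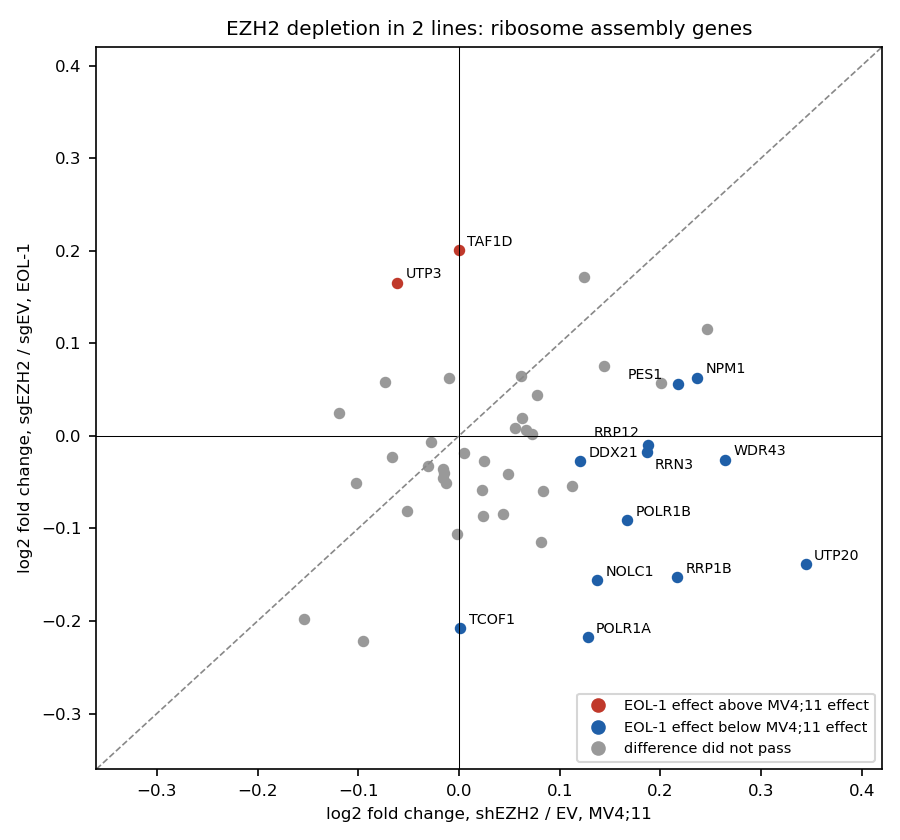
Log2 fold change after EZH2 depletion in MV4;11 on the x axis and in EOL-1 on the y axis for the 48 members tested in both, with TMM scaling; the dashed line marks equal values and colour marks members whose difference passed the interaction test. Of 14 such members, 12 lie below the line and TAF1D and UTP3 above it.

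Other genes of ribosome assembly and the ribosomal proteins give the setting of these values. Of 107 further assembly genes, 29 fell and 8 rose with the cMyc guides, with a median log2 fold change of -0.08. That is 27.1% and 7.48%, where 18.7% and 18.6% of all genes were called. Under spike-in scaling 8 fell and 18 rose, with a median of 0.04, where 8.38% of all genes were lower and 22.5% higher. RSL24D1, a 60S precursor protein, measured 188 and 188 CPM with guide 1 and 189 and 208 CPM with guide 5, against 334 and 346 CPM with sgEV. It was further apart from its controls than any of the 49 members (-0.81 ± 0.04, edgeR adjusted p = 2.22e-08). POLR1D, a subunit that RNA polymerases I and III share, measured 126 and 124 CPM with guide 1 and 124 and 119.8 CPM with guide 5, against 166 and 168 CPM with sgEV (-0.44 ± 0.04, edgeR adjusted p = 3.79e-06). URB2, a nucleolar 60S factor, rose with the cMyc guides (0.42 ± 0.07) and with shEZH2 (0.35 ± 0.06).

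Of the same 107 genes, 15 rose and 2 fell with shEZH2, under spike-in scaling 1 and 1, and 5 rose and 8 fell with sgEZH2 in EOL-1. POLR1D was among the 15, at 0.23 ± 0.05 (edgeR adjusted p = 0.0030). In EOL-1 the lowest value was that of MDN1, the large ATPase that strips factors from 60S precursors. It measured 74.0 and 62.9 CPM with sgEZH2, against 95.5 and 90.1 CPM with sgEV (-0.43 ± 0.07, edgeR adjusted p = 0.0022). Genes for cytosolic ribosomal proteins, which share reads with processed pseudogenes, were lower for 71 and higher for 1 of 82 with the cMyc guides, and under spike-in scaling lower for 35 and higher for 2. They were higher for 50 and lower for 0 with shEZH2, and under spike-in scaling higher for 21 and lower for 1. In EOL-1 they were higher for 28 and lower for 0 of 81. The shares were 86.6% lower with the cMyc guides, 61.0% higher with shEZH2 and 34.6% higher in EOL-1. Of all genes 18.7%, 13.4% and 15.1% were called in those directions. Under spike-in scaling 8.38% of all genes were lower with the cMyc guides and 5.92% higher with shEZH2. Counts of mitochondrial transcripts moved as well: they took 3.18, 3.14, 3.44 and 3.16% of counts in the sgcMyc libraries, against 2.47 and 2.41% in sgEV, and 2.79 and 2.80% with shEZH2, against 2.18 and 2.22% with EV. Their part in the members' values was not tested.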

How the data were processed

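Libraries were made from total RNA with a NEBNext Ultra II kit, per the labels' protocols. Per the file headers, each deposited table holds raw and normalised columns per library, and columns were matched to samples by target, guide and replicate number. The raw columns are estimated counts (expected counts that need not be whole) made by the authors, and the normalised columns hold the authors' values on a log2-like scale (log2 here), by a method not stated. RSEM, DESeq and the build hg19 appear in the submitters' processing notes, with no versions. No source used here gives the annotation, strand setting or filters. The mean column in the deposited EOL-1 table was not used.

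Estimated counts were rounded, genes passed filterByExpr, libraries were scaled by TMM, and each table was fitted with edgeR 4.0.16 in R 4.3.3 (robust glmQLFit, glmQLFTest, Benjamini-Hochberg over all genes, threshold 0.05), after tests on simulated data. The sgcMyc table was fitted with 3 groups. CPM is TMM-scaled within a table, so levels are compared only within one. Marker levels are CPM without TMM. Spike-in RNAs (56 in each MV4;11 table) stayed out of library sizes. Alternatives were DESeq2 1.42.0, its size factors, no filter, spike-in scaling, a replicate block, limma 3.58.1 on the log2 values, and leaving out each library. EOL-1 libraries list no spike-in RNAs, so spike-in scaling was not run there or for the difference between lines. Limma was not run for that difference either. A calendar date replaces the symbol in 18 rows per table. Values by library are given for the called members with the smallest p per comparison and direction, those called in several comparisons, and UBTF, POLR1A, NCL, FBL and NPM1. EZH2, MYC and further assembly genes with the smallest p are named too. The members and lists were chosen with earlier results of these data known. Errors are SE of the fit and cover counting and library spread only.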

Additional observations from a re-analysis of the deposited data

Results flagged for a closer look

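For 14 members the effect of EZH2 depletion differed between the lines in the interaction test of edgeR, with Benjamini-Hochberg adjustment over all genes. The value is the log2 fold change of sgEZH2 over sgEV in EOL-1 minus that of shEZH2 over EV in MV4;11. Line and method of depletion cannot be told apart in it.

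It was negative for 12 members. For UTP20 it was -0.49, for RRP1B -0.38, for POLR1A -0.35, for NOLC1 -0.30, for WDR43 -0.30 and for POLR1B -0.27, and these 6 passed under all 12 alternatives run. For TCOF1 it was -0.22, for RRN3 -0.21, for RRP12 -0.21, for NPM1 -0.18, for PES1 -0.17 and for DDX21 -0.16. Of these, NPM1 was lost in 2 alternatives, without the second shEZH2 library and without the second EOL-1 sgEV library, and the other 5 in 6 to 8. It was positive for UTP3, at 0.22, lost in 7 alternatives, and for TAF1D, at 0.19, lost in 8. With 2 libraries in each group, no group was large enough to test whether 1 library lies far from the others.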

How the results depend on the processing

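No call reversed its direction under any alternative run. Uncalled values near 0 changed sign in some. Counts given here are members called higher and lower. With the DESeq2 test they were 5 and 0 for shEZH2, 0 and 13 for the cMyc guides, 0 and 10 for guide 1, 0 and 8 for guide 5, 0 and 4 for sgEZH2 in EOL-1 and 0 and 9 for the difference between lines. Of all genes, DESeq2 called 5.56% and 5.72% for shEZH2, 10.8% and 10.3% for the cMyc guides and 9.02% and 8.34% for guide 1. For guide 5 it called 8.66% and 8.20%, in EOL-1 6.65% and 4.31%, and for the difference 10.5% and 9.79%. With spike-in scaling they were 1 and 0 for shEZH2, 3 and 6 for the cMyc guides, 0 and 7 for guide 1 and 4 and 4 for guide 5. Of all genes, 5.92% and 10.4% were then called for shEZH2 and 22.5% and 8.38% for the cMyc guides. The shares were 15.0% and 7.28% for guide 1 and 21.4% and 5.94% for guide 5. Spike-in scaling also moved the share of higher genes among all genes called, to 36.4% for shEZH2, against 48.5% with TMM, to 72.8% for the cMyc guides, against 49.8% with TMM, to 67.3% for guide 1, against 50.2%, and to 78.3% for guide 5, against 50.3%. Over all genes the DESeq2 test called 833 higher and 856 lower for shEZH2, where edgeR called 1824 and 1934, 1626 and 1542 for the cMyc guides, where edgeR called 2590 and 2613, and 998 and 646 in EOL-1, where edgeR called 2099 and 1639. With limma on the authors' log2 values 2 were higher for the cMyc guides, and 2 higher and 10 lower in EOL-1. With DESeq2 size factors 1 was higher for the difference between lines. With the replicate number as a block, 14 were higher and 2 lower for shEZH2, 2 higher and 22 lower for the cMyc guides, 0 and 23 for guide 1, 2 and 14 for guide 5, and 4 and 6 in EOL-1. Of all genes the block fit called 17.3% higher and 17.3% lower for shEZH2 and 20.3% and 20.3% for the cMyc guides. It called 17.8% and 17.7% for guide 1, 17.5% and 17.2% for guide 5, and 15.0% and 12.2% in EOL-1. Deviations of same-numbered libraries correlated at 0.302 for EV and shEZH2, 0.0708 and 0.147 for sgEV and guides 1 and 5, 0.365 for guides 1 and 5, and 0.0848 in EOL-1. With 2 numbers in a group, and no label that says what a number marks, this does not settle whether the numbers pair the libraries, so the block stands as an alternative. Leaving out 1 library at a time gave 5 to 13 higher and 0 to 4 lower for shEZH2, 0 to 2 and 10 to 23 for the cMyc guides, 0 to 1 and 9 to 27 for guide 1, 0 to 4 and 7 to 17 for guide 5, 0 to 8 and 0 to 0 for guide 5 against guide 1, 1 to 8 and 4 to 12 in EOL-1, and 0 to 3 and 6 to 10 for the difference between lines. A group left with 1 library was assumed to vary like the other groups. The share of all genes called moved between these fits too. The cause of these changes was not tested. Spike-in scaling was run neither in EOL-1 nor for the difference between lines, and limma was not run for that difference. Calls that held in all alternatives were 1 of 12 for shEZH2, 6 of 19 for the cMyc guides, 7 of 17 for guide 1, 4 of 14 for guide 5, 4 of 10 in EOL-1 and 6 of 14 for the difference.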

Other observations

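The 2 pairs of MV4;11 controls stand in separate tables that were scaled separately, so their levels are set side by side with no comparison. NOLC1 measured 292 and 267 CPM with EV and 126 and 122 CPM with sgEV. UTP20 measured 53.0 and 45.5 CPM with EV and 29.2 and 29.1 CPM with sgEV. TAF1D measured 68.3 and 70.7 CPM with EV and 68.1 and 64.4 CPM with sgEV.

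Genes for mitochondrial ribosomal proteins, which serve translation inside mitochondria, were called higher for 13 and lower for 10 of 77 with the cMyc guides, higher for 9 and lower for 2 with shEZH2, and higher for 4 and lower for 3 in EOL-1. With the cMyc guides under spike-in scaling 28 were higher and 0 lower. With the cMyc guides the median log2 fold change was -0.11 over the 49 members and 0.07 over the mitochondrial ribosomal protein genes, and under spike-in scaling it was 0.01 over the members and 0.18 over the mitochondrial genes. The difference between these lists was not tested.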
